A study of Mus musculus with 134 samples.

Results

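The genes described here are 8 genes of the FGF signalling pathway and of its feedback through ERK: the ligand Fgf4, the receptors Fgfr1 and Fgfr2, the inhibitors Spry2, Spry4 and Dusp6, and the transcription factors Etv4 and Etv5. They were chosen by name, as the rows of these genes in every expression count file, and make up 8 of the 25209 genes counted in the bulk libraries. In the single-cell matrices 7 of them were listed among 18817 genes, since Etv4 has no row there.

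The study developed SET-seq, and its single-cell form, scSET-seq. It reads the transcriptome and, with Tn5 guided by an antibody, a histone mark on chromatin from the same few cells. All samples were labelled as ES-E14TG2a, a mouse embryonic stem cell (mESC) line of 129/Ola origin, and the cells were grown with serum and LIF on gelatin. In each SET-seq library, RNA of the cytoplasm was separated from nuclei held on concanavalin A beads and primed with oligo-dT, and Tn5 then cut the mRNA/cDNA hybrids. The series holds 134 samples, of which 54 are bulk expression libraries in 27 conditions with 2 libraries each. In vitro libraries were made from purified total RNA of unmodified cells (28 libraries, with Tn5 at 25, 50 or 100 ng/µl, with 300 ng, 3 ng or 30 pg of RNA, or cut for 5, 10, 15 or 30 min at 16 °C or 37 °C). SET-seq without an antibody was made from 10, 100, 1000 or 10000 unmodified cells (8 libraries). The co-assay, in which nuclei of the same unmodified cells were treated with an antibody to H3K4me3 or H3K27me3, used 100, 1000 or 10000 cells (12 libraries). Aebp2 KO cells, in which Aebp2, an accessory subunit of the Polycomb complex PRC2, was edited with CRISPR/Cas9, gave 4 H3K27me3 co-assay libraries from the clones KO1 and KO2, and each clone is 1 line made with its own guide. A pair of ligation-based libraries of poly-A RNA served as conventional RNA-seq. The remaining expression data come from single cells kept for 12 h with a bead coated with Wnt3a, and collected as the daughter cell near the bead (proximal) or away from it (distal).

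FGF4 made by mouse embryonic stem cells acts on receptors of the same cells, mainly FGFR1, and the signal runs through RAS, RAF and MEK to the kinase ERK. ERK raises the expression of its own inhibitors and of ETS transcription factors, so that Sprouty proteins, which act on the relay from receptor to RAS, and DUSP6, a phosphatase of ERK, limit the signal, and ETV4 and ETV5 carry it to the genome. In these cells the pathway is known for its part in the exit from naive pluripotency and in the choice of primitive endoderm.

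The depth without the precursor rRNA gene Rn45s was 188275 to 16888686 counts per bulk library, and levels are given as CPM of these counts. Rn45s itself took 1.54% to 84.6% of all counts. The 9 pluripotency markers each passed 1 CPM in every library type. ES-E14TG2a is known as a line without a working Hprt gene, which encodes a purine salvage enzyme. Hprt lay below 3 CPM in 32 libraries, the 28 in vitro and the 4 Aebp2 KO libraries, with a highest value of 2.14 CPM. It lay between 66.2 and 485 CPM in the 22 SET-seq, co-assay and ligation-based libraries, which in this gene go against their label. The comparisons of KO with WT, of ligation with in vitro libraries and of SET-seq with in vitro libraries divide the libraries as Hprt does, and the assay, the genotype and this difference cannot be told apart in them. The cause was not tested.

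Fgf4, the ligand, was found at high level in every bulk library. Its level ran from 169 to 455 CPM in the in vitro libraries, with a median of 362 CPM, and from 133 to 208 CPM in SET-seq without an antibody, with a median of 177 CPM. The co-assay lay between, with 206 to 391 CPM. The 4 KO libraries had 181 to 265 CPM and the ligation-based libraries 225 and 226 CPM. Ranges of SET-seq and in vitro libraries overlapped only by the lowest in vitro library, from 30 pg of RNA.

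The receptors differed by far in level. Fgfr1 had 41.3 to 224 CPM in vitro, 89.6 to 148 CPM in SET-seq without an antibody, 55.6 to 124 CPM in the co-assay, 74.7 to 94.2 CPM in the KO libraries, and 143 and 148 CPM after ligation. Exons of Fgfr1 overlap those of Gm16159 in the annotation, and read pairs on both were not counted. Fgfr2 was close to the limit of detection. No read of Fgfr2 was found in 8 of 28 in vitro libraries, 4 of 8 SET-seq libraries, 5 of 12 co-assay libraries and 3 of 4 KO libraries, and its highest level, 10.2 CPM, came from 2 reads in the second library of 1000 cells. A level of 0 allows up to 3 counts in the library, so that these libraries do not show that Fgfr2 was absent.

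Among the inhibitors, Spry2 had a median of 19.7 CPM in vitro, 22.1 CPM in SET-seq without an antibody and 27.2 CPM in the co-assay. In the KO libraries Spry2 had 3.92 to 8.90 CPM, and after ligation 160 and 167 CPM. The 2 ligation-based libraries were above every other library for Spry2, and no other library passed 61.4 CPM. Spry4 stayed between 0 and 7.88 CPM in all 28 in vitro libraries. In the SET-seq libraries without an antibody, Spry4 was at 89.1 and 0 CPM for 10 cells, 89.5 and 24.6 CPM for 100 cells, 95.6 and 40.9 CPM for 1000 cells, and 124 and 113 CPM for 10000 cells. The co-assay had 12.7 to 35.7 CPM, and all 12 co-assay libraries were above all 28 in vitro libraries for Spry4. Of the 8 genes, Spry4 and Etv5 were free of overlap between these groups, as were 10.1% of 10120 genes with a mean of at least 5 CPM. Dusp6 was low in every library type, with medians of 4.65 CPM in vitro, 9.90 CPM in SET-seq without an antibody, 6.15 CPM in the co-assay and 7.64 CPM in the KO libraries. The highest value of Dusp6, 24.8 CPM, came from an in vitro library of 30 pg of RNA, and the other library of that condition held no read of Spry2, Spry4, Dusp6 or Etv4.

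The ETS factors Etv4 and Etv5 are close relatives, and both are known to rise with FGF signalling, but they followed different patterns here. Etv4 had a median of 10.4 CPM in vitro and a highest value of 16.1 CPM. In SET-seq without an antibody, Etv4 had 66.3 and 10.6 CPM for 10 cells, 63.7 and 88.5 CPM for 100 cells, 88.3 and 123 CPM for 1000 cells, and 139 and 122 CPM for 10000 cells. These values were above every in vitro library with the exception of the second library of 10 cells. Etv5 ran from 241 to 604 CPM in vitro, from 444 to 977 CPM in SET-seq without an antibody and from 810 to 1233 CPM in the co-assay. The KO libraries had 942 to 1289 CPM of Etv5, and the ligation-based libraries 242 and 252 CPM, among the lowest of all.

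**Figure D1:**
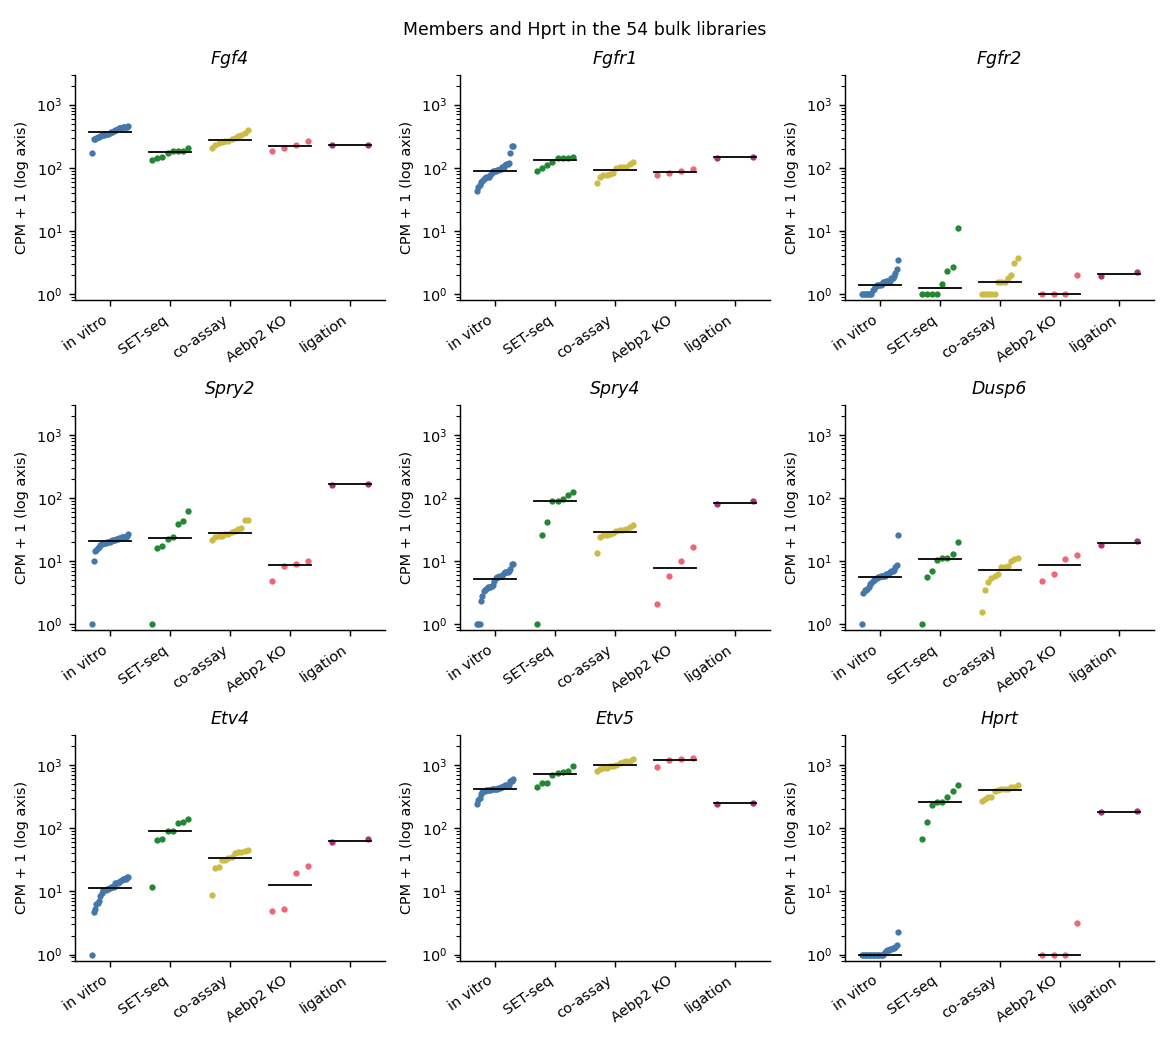
Level of the 8 genes and of Hprt in the 54 bulk libraries, as CPM + 1 on a log axis, with 1 point per library, 5 library types and a black line at the median of each type. Spry4 sits at 0 to 7.88 CPM in the in vitro libraries and at up to 124 CPM in SET-seq, and Fgfr2 lies near 0 in all types.

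The libraries with high Hprt were set against the in vitro and KO libraries as one group for the genes that varied most. Spry4 had 0 to 16.01 CPM in the 32 in vitro and KO libraries, with a median of 4.48 CPM, and 0 to 124 CPM in the 22 others, with a median of 31.3 CPM. Without the 2 libraries of 10 cells, the lowest of the others was 12.7 CPM. Etv4 had 0 to 23.9 CPM against 7.62 to 139 CPM, with medians of 10.4 and 41.8 CPM. Etv5 did not divide in this way, with 241 to 1289 CPM in the first group and 242 to 1233 CPM in the second.

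Levels of different genes were compared as RPKM, that is per length of exon and per depth. Etv5 was the highest of the 8 genes in 29 of 54 libraries, Fgf4 in 23 and Spry2 in 2. In the in vitro libraries the medians fell from Fgf4 (119 RPKM) through Etv5 (86.0), Fgfr1 (17.4), Spry2 (9.46), Etv4 (4.47), Dusp6 (1.66) and Spry4 (0.88) to Fgfr2 (0.077 RPKM), and only Etv5 and Fgfr1 were neighbours whose ranges did not overlap. In SET-seq without an antibody the order was Etv5 (144 RPKM), Fgf4 (58.4), Etv4 (37.9), Fgfr1 (26.1), Spry4 (19.0), Spry2 (10.6) and Dusp6 (3.54 RPKM), and only Etv5 and Fgf4 were separated. The co-assay gave Etv5 (201 RPKM), Fgf4 (91.5), Fgfr1 (17.9), Etv4 (14.1), Spry2 (13.0), Spry4 (6.02) and Dusp6 (2.20 RPKM), where Etv5 lay apart from Fgf4, Fgf4 from Fgfr1 and Spry2 from Spry4. In the KO libraries, Etv5 (248 RPKM), Fgf4 (71.5), Fgfr1 (16.6) and Etv4 (4.92) were separated from each other, while the ranges of Etv4, Spry2 (3.70), Dusp6 (2.73) and Spry4 (1.48 RPKM) overlapped from neighbour to neighbour. The ligation-based pair had Spry2 first (78.4 RPKM), then Fgf4 (74.5), Etv5 (50.2), Fgfr1 (29.0), Etv4 (26.6), Spry4 (17.9), Dusp6 (6.64) and Fgfr2 (0.20 RPKM). All its neighbours were separated, over 2 libraries each.

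**Figure D2:**
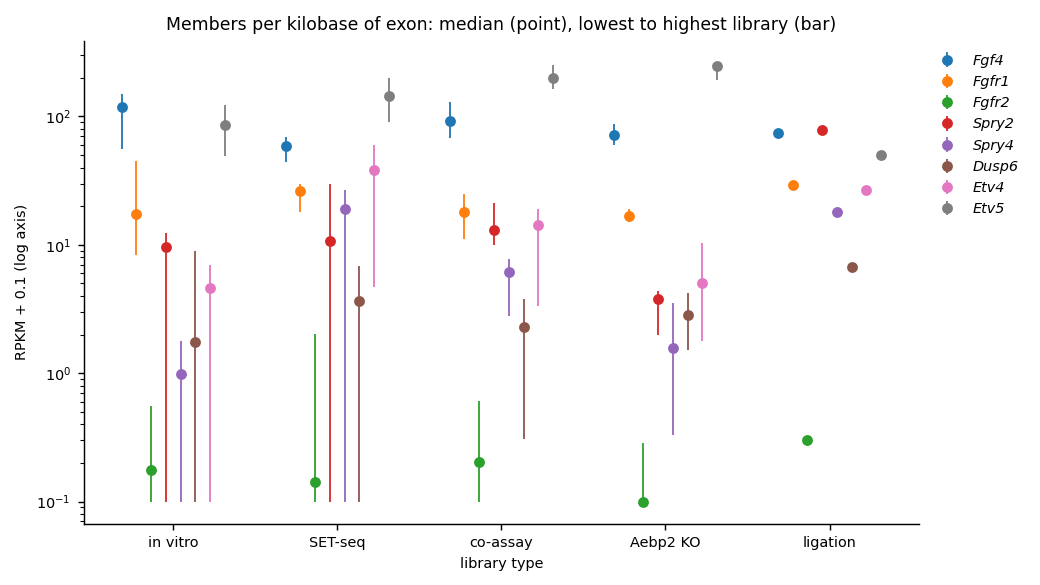
Level of the 8 genes by library type as RPKM + 0.1 on a log axis. Points are medians over libraries and bars run from the lowest to the highest library. Etv5 or Fgf4 lies on top in each type but ligation, where Spry2 has the highest median (78.4 RPKM).

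The ratio of Etv5 to Etv4 per length had a median of 17.7 in the 27 in vitro libraries used for it, 2.85 in 7 libraries of SET-seq without an antibody, 15.97 in the co-assay, 84.0 in the KO libraries (18.7 to 156, with Etv4 lower in KO1 than in KO2) and 1.89 after ligation. Since this pair moved apart, the 250 bases before the first annotated base of each gene are shown, in mm9 and 5′ to 3′ along the minus strand that carries both genes. They are at chr11:101646625-101646874 for Etv4 and at chr16:22439644-22439893 for Etv5. Capitals mark the CCAAT box, a common promoter motif, which reads ATTGG where it lies on the opposite strand.
Etv4: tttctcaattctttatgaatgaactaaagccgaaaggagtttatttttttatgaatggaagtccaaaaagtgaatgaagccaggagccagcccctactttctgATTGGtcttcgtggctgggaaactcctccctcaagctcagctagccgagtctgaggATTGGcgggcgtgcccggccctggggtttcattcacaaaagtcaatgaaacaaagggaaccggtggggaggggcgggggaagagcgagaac
Etv5: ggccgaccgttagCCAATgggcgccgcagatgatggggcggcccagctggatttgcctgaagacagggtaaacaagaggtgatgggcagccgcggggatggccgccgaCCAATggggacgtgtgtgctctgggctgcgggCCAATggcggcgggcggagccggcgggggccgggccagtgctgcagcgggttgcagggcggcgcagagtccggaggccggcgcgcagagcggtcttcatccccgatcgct
Etv4 has 2 matches that begin 147 and 91 bases before the start, and Etv5 has 3 that begin 237, 142 and 110 bases before it. The motif was found on either strand in 35.4% of 24939 promoters of this length. The window of Etv5 has a GC content of 71.2% and that of Etv4 of 50%, with a median of 54.4% over all promoters. Of the other genes, Fgf4 and Dusp6 hold 1 CCAAT match each, beginning 106 and 46 bases before the start, and Spry2, Fgfr1 and Fgfr2 hold none. CCGGAA, a longer string that holds the GGAA core of ETS sites, is in 14.2% of all promoters, and CTTTGA, one form of the TCF/LEF core, in 13.1%. Neither string was found on either strand in the windows of the 7 genes searched, which leaves out Spry4. GGAA alone and CTTTGT, another form of the TCF/LEF core, were not searched for. The Etv4 window shown above holds GGAA and also ACAAAG, which is CTTTGT on the opposite strand. The Spry2 window holds CTTTGT. A match to these letters is no evidence of binding.

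In mm9, Fgf4 lies at chr7:152047291-152051150 and Fgfr1 at chr8:26629231-26686190, both on the plus strand. Fgfr2 lies at chr7:137305965-137410322, Spry2 at chr14:106291164-106296036 and Spry4 at chr18:38745901-38761001, all on the minus strand. Dusp6 lies at chr10:98725865-98730123 on the plus strand, and Etv4 and Etv5 lie at chr11:101631062-101646624 and chr16:22381386-22439643 on the minus strand. The counted reads are those on their exons.

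The genes most like each member were taken from the Pearson correlation of log2 CPM over the 27 conditions, among 10120 genes. This is a description, since conditions of one library type share their cell stock, RNA and depth. For Spry4 they were LOC105246506 (r = 0.960), Etv4 (r = 0.951) and Mrpl44 (r = 0.920), and for Etv4 they were Spry4, Dctd (r = 0.919) and LOC105246506 (r = 0.906). Etv4 and Etv5 had r = 0.274 with each other. Hprt had r = 0.832 with Spry4, 0.772 with Etv4, 0.548 with Etv5 and -0.577 with Fgf4. For Fgf4 the nearest genes were Gata2 (r = 0.875), Map2k1 (r = 0.855) and Nupr1 (r = 0.848), of which Map2k1 encodes the kinase MEK1. For Fgfr1 they were Spns1 (r = 0.915), Trh (r = 0.861) and Fkbp8 (r = 0.831). Etv5 was nearest to Vdac3 (r = 0.939), H2ac10 (r = 0.925) and Prdx1 (r = 0.913), and Spry2 to Myorg (r = 0.886), Tmx1 (r = 0.837) and Lrrfip1 (r = 0.83). Dusp6 and Fgfr2, the low genes, had the weakest likeness, with Sh2d4b (r = 0.759) and Trim39 (r = 0.628) on top. Spry2 and Spry4 had r = 0.626.

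The comparison of Aebp2 KO with WT asked which genes change when Aebp2 is edited. The WT libraries used here are the H3K27me3 co-assay of 1000 and 10000 cells. Rn45s took 48.8% to 56.7% of the counts in the KO libraries and 21.9% to 24.9% in these WT libraries. The labels of the KO libraries give no cell number. The part of these differences in the results was not tested. Aebp2 itself had 15.7 and 15.0 CPM in KO1, 49.7 and 30.2 CPM in KO2 and 51.7 to 76.0 CPM in WT, and was called lower (log2 fold change -1.27 ± 0.20 (SE)). KO1 alone had -1.998 against WT, while KO2 alone was not called (-0.52, adjusted p = 0.065), nor were the KO libraries against SET-seq without an antibody (-0.58, adjusted p = 0.061). Counts over all exons can stay high after a small edit, so this checks the labels only in part. All fold changes and adjusted p here are from edgeR's quasi-likelihood test over all genes, with the adjustment of Benjamini and Hochberg and a call at 0.05. The study describes the KO libraries of a clone as independent experiments and those of the temperature and time series as biologically independent. For the other conditions no source used here says that libraries came from separate cultures, and there p-values measure only the spread between libraries, which may be technical. The KO tests use the spread between libraries within KO1, KO2 and WT, so the difference between the clones does not enter their p-values. The test of KO1 against KO2 compares single lines. In bulk RNA fewer cells that express a gene and less RNA per cell cannot be told apart.

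Spry2, Spry4, Etv4 and Fgf4 were lower in KO, and no gene of the 8 was called higher. Spry2 had 3.92 and 7.49 CPM in KO1, 7.95 and 8.90 CPM in KO2, and 24.5, 26.1, 28.3 and 32.7 CPM in WT. Spry4 had 4.91 and 1.07 CPM in KO1, 8.95 and 16.01 CPM in KO2, and 25.8, 25.0, 30.7 and 35.7 CPM in WT. Etv4 had 3.92 and 4.28 CPM in KO1, 23.9 and 18.7 CPM in KO2, and 32.4, 30.5, 44.4 and 42.6 CPM in WT. In these 3 genes all 4 KO libraries were below all 4 WT libraries. Spry2 fell by 1.91 ± 0.28 on the log2 scale (3.75-fold lower, adjusted p = 4.3e-06), Spry4 fell by 2.12 ± 0.32 (4.33-fold lower, adjusted p = 7.4e-06) and Etv4 fell by 1.88 ± 0.26 (3.68-fold lower, adjusted p = 2.2e-06). The KO values rest on few reads, 4 to 10 per library for Spry2, 1 to 18 for Spry4 and 4 to 24 for Etv4.

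Fgf4 had 265 and 209 CPM in KO1, 181 and 225 CPM in KO2, and 288, 263, 331 and 356 CPM in WT, where the highest KO library passed the lowest WT library. Fgf4 fell by 0.39 ± 0.12 on the log2 scale (adjusted p = 0.0087). It was no longer called without the second library of KO1 (log2 fold change -0.32, adjusted p = 0.065) or the first of KO2 (-0.30, adjusted p = 0.056). Fgfr1 had 74.7 to 94.2 CPM in KO and 76.3 to 113 CPM in WT (log2 fold change -0.04 ± 0.14, adjusted p = 0.81). Dusp6 had 3.92 and 5.35 CPM in KO1, 9.94 and 11.6 CPM in KO2, and 4.35 to 7.21 CPM in WT (log2 fold change 0.45 ± 0.42, adjusted p = 0.35). Etv5 had 1289 and 1240 CPM in KO1, 942 and 1204 CPM in KO2, and 1120, 1176, 868 and 964 CPM in WT (log2 fold change 0.27 ± 0.12, adjusted p = 0.059). Etv5 passed the threshold when a single library was left out, which was the first WT library of 1000 cells (adjusted p = 0.042), the second (0.019) or the first KO2 library (0.019). Fgfr2 was not tested, with 1 read in the 4 KO libraries and 15 in WT. The test called 4 of the 7 genes tested, all lower, where it called 62.1% of all genes tested. The median log2 fold change of the 7 was -0.39, against -0.046 over all genes.

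**Figure D3:**
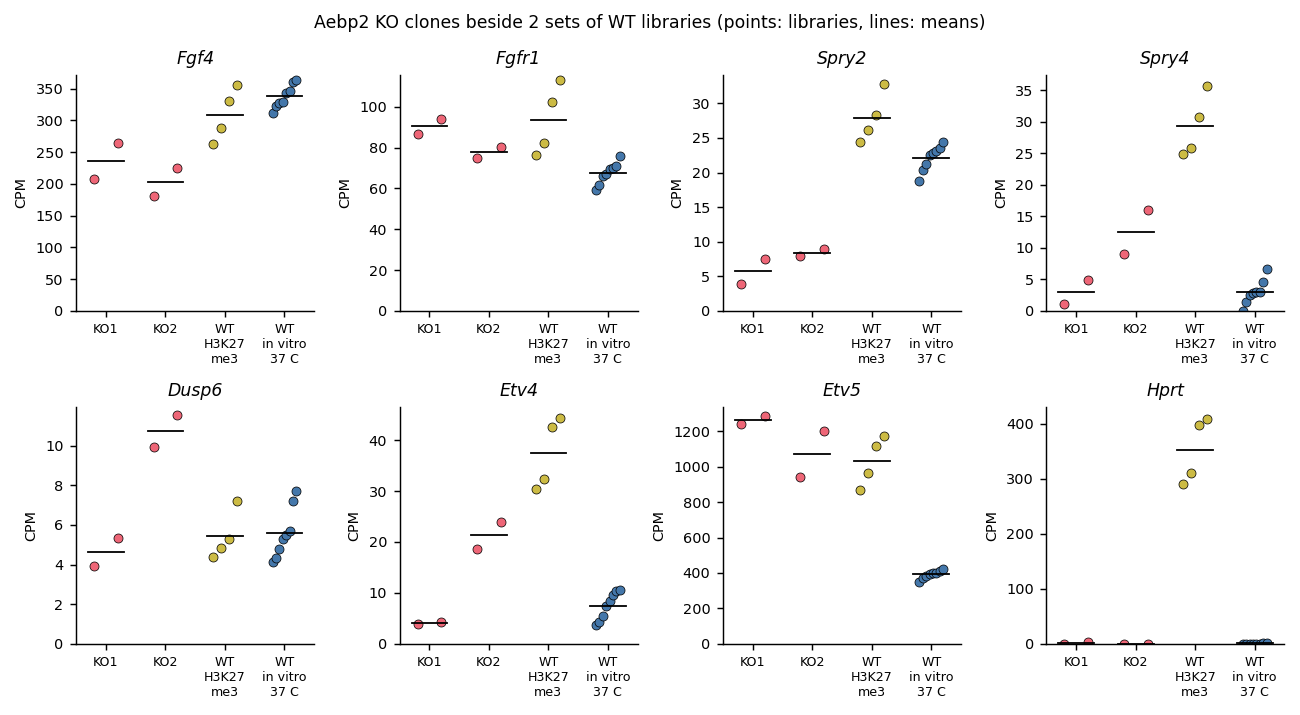
CPM of 7 of the genes and of Hprt in Aebp2 KO1, Aebp2 KO2, the WT H3K27me3 co-assay of 1000 and 10000 cells and the in vitro libraries at 37 °C, on linear axes, with 1 point per library and lines at the group means. Spry2 is lower in the KO libraries (3.92 to 8.90 CPM) than in both sets of WT libraries, while Spry4 and Etv4 are lower than the co-assay but not than the in vitro libraries.

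Set against the 8 in vitro libraries at 37 °C, which share the low Hprt of the KO libraries but not their RNA preparation, the order of the groups differed by gene. Spry2 had 18.8 to 24.5 CPM in these libraries and fell in KO by 1.67 ± 0.24 (log2 scale, adjusted p = 2.4e-07). Spry4 had 0 to 6.59 CPM in vitro, with a log2 fold change of 0.97 ± 0.51 (adjusted p = 0.088), and Etv4 had 3.67 to 10.6 CPM, with 0.29 ± 0.36 (adjusted p = 0.48). Fgf4 fell by 0.60 ± 0.08 (adjusted p = 1.6e-07), from 312 to 363 CPM in vitro. Etv5 rose by 1.59 ± 0.07 (adjusted p = 1.1e-18), from 348 to 423 CPM, and Fgfr1 rose by 0.32 ± 0.10 (adjusted p = 0.0061). This comparison called 69.4% of all genes. Against SET-seq without an antibody, where 58.3% of all genes were called, Spry2 (-2.51), Spry4 (-4.12) and Etv4 (-3.75) were lower by more than against the co-assay. Fgfr1 (-0.78, adjusted p = 0.0035) and Etv5 (0.70, adjusted p = 0.0063) were called there too, and Fgf4 was not (0.32, adjusted p = 0.19). With the co-assay of 10000 cells alone as WT (57.3% of all genes called), Etv5 was higher in KO (0.49, adjusted p = 3.6e-04). Lower Spry4 and Etv4 in KO thus depended on which libraries stood for WT, and lower Spry2 did not.

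Marker genes also differed between the KO libraries and the co-assay. The 4 primed epiblast markers summed to 158 to 192 CPM in KO and 51.7 to 70.1 CPM in the whole co-assay, with 2 of the 4 above 1 CPM in KO. The 4 mesoderm markers summed to 36.4 to 45.7 CPM against 7.02 to 26.2 CPM, with 3 above 1 CPM. The higher sums came from Dnmt3b (133 to 170 against 41.8 to 56.9 CPM), Otx2 (15.1 to 31.0 against 0.51 to 5.71 CPM) and Eomes (28.9 to 37.8 against 2.699 to 19.7 CPM). Pou3f1 (medians of 0.94 against 5.799 CPM) and Mixl1 (2.05 against 2.72 CPM) went the other way, and T had medians of 4.16 and 3.06 CPM. Feeder cell markers summed to 1.78 to 14.9 CPM against 0.85 to 13.2 CPM, with 1 of 4 above 1 CPM in KO. The marker differences depended on which libraries stood for WT. In vitro libraries, with low Hprt, had sums of 35.4 to 238 CPM for the primed epiblast markers, a range that holds the KO values. Their mesoderm markers summed to 56.1 to 111 CPM, above all KO libraries, with T at 46.3 to 111 CPM. The 9 pluripotency markers summed to 3711 to 4272 CPM in KO, 5374 to 6120 CPM in the co-assay and 4371 to 8623 CPM in vitro. They did not move as one. Klf4 had 53.4 to 78.5 CPM in KO against 314 to 436 CPM in the co-assay. Sox2 had medians of 151 and 152 CPM, and Esrrb was higher in KO (medians of 413 against 359 CPM). The part of all these marker genes in the results for Spry2, Spry4, Etv4 and Fgf4 was not tested.

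Other genes of the pathway were read from 3 lists of ligands and receptors (13 genes), of the signal relay (20 genes, 19 listed) and of feedback and target genes (21 genes). In KO against WT the single ligand or receptor tested, Fgf17, was lower (log2 fold change -1.84 ± 0.39). In the relay 10 genes rose and 5 fell of 19 tested, with Frs3, a docking protein of FGF receptors, and Hras among those that fell (by 2.46 and 1.86). Of 13 feedback and target genes tested, 9 rose and 1 fell. These 15 of 19 and 10 of 13 calls stand beside 62.1% over all genes. Egr1, an immediate early target of ERK, rose by 3.13 ± 0.56, and Il17rd, which encodes the inhibitor Sef, rose by 1.91 ± 0.21 on the log2 scale. Between groups of unmodified cells, Egr1 was lower in the co-assay than in SET-seq without an antibody by 3.63 ± 0.60. The rise in KO is against the co-assay.

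The clones differed from each other in Spry4 and Etv4. Spry4 had 6 reads in the 2 KO1 libraries and 27 in the 2 KO2 libraries, and Etv4 had 8 and 45. In both genes the KO1 libraries were below the KO2 libraries. Spry4 was lower in KO1 by a log2 fold change of -2.13 ± 0.63 (adjusted p = 0.040) and Etv4 by -2.45 ± 0.48 (adjusted p = 0.0034). These were 2 of 7 genes tested, where 7.20% of all genes were called. Spry4 was not called without the first KO1 library (-3.61, adjusted p = 0.051), the second KO1 library (-1.46, adjusted p = 0.30) or the second KO2 library (-1.61, adjusted p = 0.30). Etv4 was not called without the second KO1 library, with a fold as large (-2.51, adjusted p = 0.055). Calls over all genes also fell, from 712 to 278, 85 and 135 without these 3 libraries.

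Dusp6 had 9 reads in KO1 and 23 in KO2 (log2 fold change -1.32 ± 0.63, adjusted p = 0.21), and Spry2 11 and 18 (-0.68 ± 0.54, adjusted p = 0.49). Fgf4, Fgfr1 and Etv5 had log2 fold changes of 0.12 ± 0.18, 0.12 ± 0.22 and 0.13 ± 0.17, with adjusted p of 0.70 to 0.79. Each clone was also set against WT alone. KO1, with 53.0% of all genes called, had lower Spry2 (-2.25), Spry4 (-3.18) and Etv4 (-3.11). KO2, with 46.5%, had lower Spry2 (-1.56, adjusted p = 6.8e-04), Spry4 (-1.04, adjusted p = 0.012) and Fgf4 (-0.44, adjusted p = 0.030), with Etv4 short of a call (-0.64 ± 0.26, adjusted p = 0.051). Among the feedback genes outside the 8, Dusp9 (-1.55), Etv1 (-1.35) and Ier2 (-0.80) were lower in KO1 and Rasa1 was higher (0.78), of 13 tested. In the relay Braf was higher (0.98), as the only call of 19, and Fgf17, the 1 ligand or receptor tested, was not called.

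SET-seq reads RNA of the cytoplasm, and the in vitro libraries hold RNA of whole cells. SET-seq of 100 to 10000 cells without an antibody (6 libraries) was set against the in vitro libraries at 37 °C (8 libraries). Spry4 had 24.6 to 124 CPM against 0 to 6.59 CPM, a log2 fold change of 4.87 ± 0.36 (29.3-fold higher). Etv4 had 63.7 to 139 CPM against 3.67 to 10.6 CPM (3.83 ± 0.22, 14.2-fold higher), and Etv5 had 512 to 797 CPM against 348 to 423 CPM (0.83 ± 0.11). None of the 3 had overlapping groups. Fgfr1 rose by 0.97 ± 0.12 and Dusp6 by 1.18 ± 0.27, with some overlap for Dusp6, and Fgf4 fell by 0.89 ± 0.11 on the log2 scale. Spry2 was not called (0.47 ± 0.23, adjusted p = 0.082), but it was without either library of 100 cells (adjusted p = 0.014 and 0.026). Thus 6 of 7 genes passed, and 67.0% of all genes did. Of the other ligands and receptors 1 rose and 1 fell of 4 tested, of the relay 6 rose and 8 fell of 19, with Sos2 down by 2.06, and of feedback genes 5 rose and 5 fell of 16. Egr1 (4.04), Myc (2.25) and Dusp9 (2.08) were higher and Ier3 lower (-2.11).

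The ligation-based libraries differed from the 16 in vitro libraries of the temperature series in all 7 genes tested, without overlap in any of them, and 81.0% of all genes were called. Spry4 was 17.4-fold higher after ligation (log2 fold change 4.12 ± 0.13), Spry2 6.59-fold (2.72 ± 0.07), Etv4 5.40-fold (2.43 ± 0.12) and Dusp6 3.04-fold (1.60 ± 0.14). Fgfr1 rose by 0.58 ± 0.07, while Fgf4 fell by 1.01 ± 0.07 and Etv5 fell by 1.02 ± 0.07 on the log2 scale. The in vitro ranges were 14.2 to 24.5 CPM for Spry2, 0 to 6.59 CPM for Spry4, 3.52 to 7.72 CPM for Dusp6, 3.67 to 16.1 CPM for Etv4, 312 to 455 CPM for Fgf4 and 348 to 475 CPM for Etv5. The ligation-based RNA was fragmented and primed at random, and the in vitro RNA was primed at the poly-A tail.

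Against SET-seq without an antibody, which shares the high Hprt of the ligation-based libraries, 3 of 7 genes were called and 46.8% of all genes, in a comparison chosen after the data were seen. Spry2 was higher after ligation (2.19, adjusted p = 4.1e-04), and Etv5 (-1.72, adjusted p = 8.7e-05) and Etv4 (-1.02, adjusted p = 0.013) were lower. Spry4 differed by -0.35 (adjusted p = 0.56), so that its large difference from the in vitro libraries had no counterpart here. Fgf4 (0.10), Fgfr1 (-0.08) and Dusp6 (0.38) were not called. Of the other genes of the pathway, ligation against in vitro called 7 of 10 ligands and receptors, 15 of 19 relay genes and 14 of 18 feedback genes, where it called 81.0% of all genes. Fgf1 (5.18) and Fgf18 (2.95) were higher and Fgf8 (-3.28) and Fgfrl1 (-3.16), a receptor without a kinase domain, lower, and Myc was higher (3.13).

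Expression in the co-assay was compared with SET-seq without an antibody at the same 3 cell numbers (12 and 6 libraries). In the study's method the RNA is taken off the nuclei before the antibody is added. The comparison thus sets 2 groups of libraries side by side, and the cause of their differences was not tested. Etv4 was lower in the co-assay, at 7.62 to 44.4 CPM against 63.7 to 139 CPM, a log2 fold change of -1.78 ± 0.17. Spry4 was lower by -1.73 ± 0.21. Etv5 was higher, at 810 to 1233 CPM against 512 to 797 CPM (0.48 ± 0.11), and Fgf4 was higher by 0.61 ± 0.10. Neither Etv4 nor Etv5 had overlapping groups. Fgfr1 fell by 0.57 ± 0.13, and Dusp6 fell by 1.03 ± 0.40 on the log2 scale with adjusted p = 0.038. The call of Dusp6 was lost on leaving out any 1 of 9 of the 18 libraries. These were each H3K27me3 library of 1000 and 10000 cells, the second H3K4me3 library of 10000 cells and, without an antibody, the first libraries of 100 and 1000 cells and both of 10000 cells. The adjusted p was then 0.052 to 0.075, or 0.30 (log2 fold change -0.63) without the first library of 100 cells. Spry2 differed by -0.02 ± 0.24 (adjusted p = 0.96). The comparison called 6 of 7 genes and 41.2% of all genes. Outside the 8, 3 ligands or receptors rose of 7 tested, Fgf10 (1.59) and Fgf18 (1.23) among them. In the relay 7 rose and 5 fell of 19, and 4 feedback genes rose and 5 fell of 16, with Egr1 (-3.63) and Spry1 (-1.15) lower and Rasa1 (1.43) higher.

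Between the antibodies none of the 7 genes was called. The log2 fold changes of H3K27me3 against H3K4me3 ran from -0.25 to 0.19, all with adjusted p = 0.996. No gene at all was called by edgeR (0.00%), with 361 of 11616 at an unadjusted p below 0.05, and none by DESeq2, with 486.

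Between 100 and 10000 cells in the co-assay 2 of 7 genes differed, and 21.0% of all genes. Fgf4 was lower with 100 cells, at 206 to 251 CPM against 320 to 391 CPM (-0.42 ± 0.09, adjusted p = 0.0015), without overlap. Etv5 was higher, at 888 to 1095 CPM against 810 to 964 CPM (0.33 ± 0.07, adjusted p = 0.0021). Etv4 had 7.62 to 33.4 CPM against 39.5 to 44.4 CPM but was not called (-0.78 ± 0.30, adjusted p = 0.073), and it passed without the second H3K27me3 library of 100 cells (-1.197, adjusted p = 0.0046). In the relay 5 of 19 genes fell, Shc1 among them (-0.61), and Dusp9 (-0.60) was the only feedback gene called of 15. None of 7 ligands and receptors was.

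**Figure D4:**
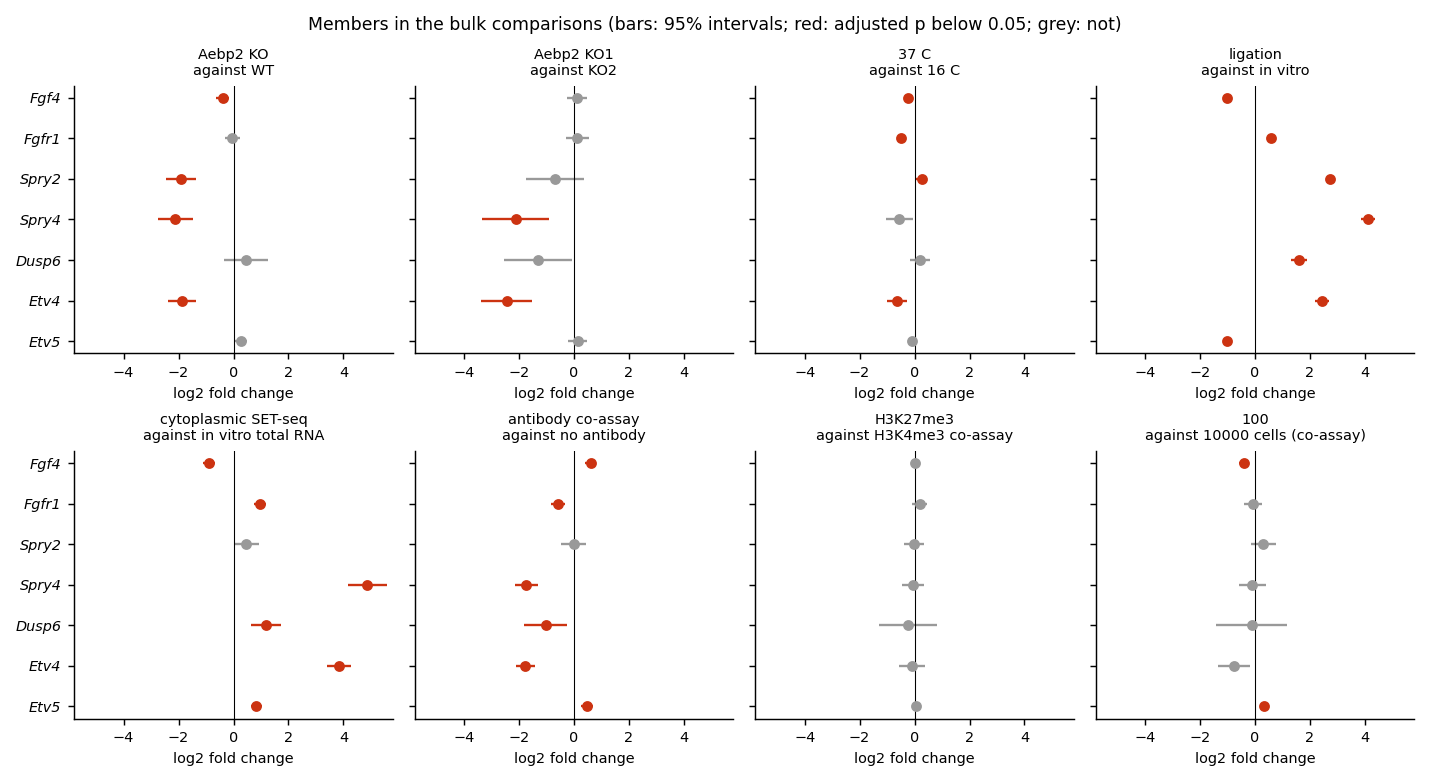
Log2 fold change of 7 of the genes in the 8 bulk comparisons, as points with 95% intervals from edgeR, red where the adjusted p is below 0.05 and grey elsewhere. Spry4 and Etv4 have the widest spread, from -2.13 and -2.45 in KO1 against KO2 to 4.87 and 3.83 in SET-seq against in vitro libraries.

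Within the in vitro libraries, tagmentation at 37 °C was compared with 16 °C over 4 times (8 libraries each). Fgfr1 had 59.3 to 75.7 CPM at 37 °C and 87.4 to 111 CPM at 16 °C (log2 fold change -0.48 ± 0.07, adjusted p = 5.9e-07). Fgf4 had 312 to 363 CPM against 365 to 455 CPM (-0.26 ± 0.05, adjusted p = 9.3e-05). Neither gene had overlapping groups. Etv4 was lower at 37 °C, with 3.67 to 10.6 CPM against 5.32 to 16.1 CPM (-0.63 ± 0.18, adjusted p = 0.0032). Spry2 was higher, with 18.8 to 24.5 CPM against 14.2 to 22.8 CPM (0.25 ± 0.10, adjusted p = 0.032), and this call was lost on leaving out any 1 of 10 of the 16 libraries (adjusted p = 0.052 to 0.14). It stood without the first library of 5, 10 or 15 min or the second of 10 min at 16 °C, and without the first of 10 min or the second of 5 min at 37 °C. Spry4 (-0.56 ± 0.25, adjusted p = 0.053), Etv5 (-0.11 ± 0.05, adjusted p = 0.068) and Dusp6 (0.20 ± 0.19, adjusted p = 0.36) were not called, and leaving out 1 library brought Etv5 under 0.05 for 8 of the 16 libraries. For Spry4 this held for the second library of 10 min at 16 °C (adjusted p = 0.030) and, at 37 °C, the first of 5 min (0.019) and the second of 10 min (0.012). So 4 of 7 genes were called, and 63.4% of all genes. At each temperature Fgf4 was lowest after 30 min, with 365 and 378 CPM at 16 °C and 312 and 322 CPM at 37 °C. Fgfrl1 (-1.09) was the only other ligand or receptor called, of 7. In the relay 2 genes rose and 9 fell of 19, with Mapk3, which encodes ERK1, down by 0.81, and of 17 feedback genes 8 rose, led by Spred1 (0.98), Etv1 (0.90) and Myc (0.82), and 3 fell.

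With different amounts of Tn5 the 2 libraries of a condition differed more than the conditions. The libraries with replicate number 1 had 169 to 224 CPM of Fgfr1 and those with number 2 had 113 to 119 CPM. Etv5 had 241 to 298 CPM in the former and 423 to 484 CPM in the latter, and Spry4 had 1.77 to 3.20 CPM and 5.79 to 7.88 CPM. Spry2 had 9.14 to 17.1 CPM and 18.7 to 25.5 CPM, Etv4 9.37 to 10.8 CPM and 14.4 to 16.1 CPM, and Dusp6 4.57 to 6.13 CPM and 2.13 to 2.61 CPM. None of these ranges overlapped. The highest Fgfr1 of all bulk libraries thus belongs to 1 replicate number of this series. With less RNA, Fgf4 had 281 and 284 CPM at 300 ng, 301 and 311 CPM at 3 ng, and 169 and 334 CPM at 30 pg, and Etv5 had 397 and 487 CPM, 564 and 604 CPM, and 481 and 563 CPM.

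In single cells, reads on exons and introns were counted for 752 cells in 16 experiments, 10 with H3K27me3 and 6 with H3K4me3. Of these 545 had more than 1000 and fewer than 5000 genes and were used, 335 with H3K27me3 and 210 with H3K4me3. The cells carry 96 distinct barcodes, and 98 of 120 pairs of experiments share some, up to 64. The counts are reads without molecular identifiers. Median reads per cell ran from 9336 to 1475910 between experiments, so that shares of cells with a read are given but not compared. In 5 experiments, H3K27me3 2, 8, 9 and 10 and H3K4me3 1, the pluripotency factor Nanog was below 5 CPM. In H3K27me3 experiments 8 to 10, Etv5 was at 0.26, 0.12 and 1.197 CPM. Aebp2 took 19142 CPM of all H3K27me3 cells and 1235 CPM of H3K4me3 cells, and was found in all 335 H3K27me3 cells. Its bulk level, counted on exons, was at most 132 CPM. The excess differed by experiment. With H3K4me3, experiments 4 and 6 had 7042 and 7868 CPM and the others at most 85.1 CPM. With H3K27me3, experiment 3 had 123 CPM and the others at least 12912.5 CPM.

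Etv5 had 129 CPM in H3K27me3 cells, with a read in 129 of 335 cells, and 258 CPM in H3K4me3 cells, with a read in 165 of 210 cells. Fgf4 had 15.2 and 56.8 CPM, with reads in 42 and 71 cells, and 77.1% of its H3K27me3 reads came from 1 cell. Fgfr1 had 10.8 and 26.2 CPM, in 26 and 45 cells. Spry2 was found in 15 and 20 cells (11.6 and 10.3 CPM) and Spry4 in 19 and 25 cells (39.5 and 6.20 CPM). Dusp6 had 7 reads in 5 H3K27me3 cells and 9 reads in 4 H3K4me3 cells. These sums are set by few cells and describe those cells rather than a level of the line.

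Fgfr2 passed its bulk level in some experiments. Bulk counts cover exons only and single-cell counts also introns, and Fgfr2 spans 104358 bases with 5346 in exons, so these levels are unlike measures. It had reads in 184 H3K27me3 cells (22.5 CPM) and 98 H3K4me3 cells (887 CPM). Of the H3K27me3 reads, 51.2% came from 1 cell, and H3K27me3 experiments 1, 2, 4, 5, 7 and 9 had 0 to 1.58 CPM. In the H3K4me3 experiment 4, all 47 cells held reads of Fgfr2, 26411 in sum and 9095 CPM, and the same experiment had 7042 CPM of Aebp2. The other experiments with H3K4me3 had at most 53.5 CPM of Fgfr2. No bulk library passed 10.2 CPM.

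Proximal and distal cells were compared to see whether a gene follows the side of the Wnt3a bead, from counts summed per experiment and position in the 14 experiments with at least 3 cells at each, with the experiment as a block. None of the 6 genes tested was called, as no gene was over the whole table (0.00%, with 1194 of 13086 genes at an unadjusted p below 0.05 by edgeR). DESeq2 called 58 genes of 8637 and limma none. Etv5 had a log2 fold change of proximal against distal of 0.05 ± 0.56, with a 95% interval of -1.04 to 1.14. The others were -0.58 ± 0.91 for Fgf4, 0.05 ± 0.82 for Fgfr2, 1.42 ± 1.79 for Spry2 and 1.25 ± 1.26 for Spry4, and Fgfr1 had a 95% interval of -4.24 to 0.24. Dusp6 did not pass the filter on low counts.

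Fgfr1 was lower in proximal cells in most experiments. With H3K27me3 it had 38.8 CPM in proximal and 53.5 CPM in distal cells in experiment 4, 6.84 and 41.4 CPM in experiment 5, 0.38 and 83.4 CPM in experiment 6, and 37.1 and 121 CPM in experiment 7. With H3K4me3 it had 0.21 and 114 CPM in experiment 2, 0.53 and 1.196 CPM in experiment 3, 1.63 and 16.6 CPM in experiment 5, and 118 and 132 CPM in experiment 6. In H3K27me3 experiment 8 the values were 0 and 0.17 CPM. Proximal cells were higher in H3K27me3 experiment 9 (0.22 and 0 CPM) and in H3K4me3 experiment 4 (0.58 and 0 CPM). Distal cells were higher in 9 experiments, proximal cells in 2 and both were at 0 in 3. Several directions rest on very few reads in proximal and distal cells. These were 2 and 6 reads in H3K27me3 experiment 4, 0 and 2 in experiment 8, and 3 and 6 in H3K4me3 experiment 3. Where proximal cells were higher, they were 2 and 0 reads in H3K27me3 experiment 9, and 1 and 0 in H3K4me3 experiment 4. In experiments with more reads, few cells held them: 1 cell had 49.9% of the Fgfr1 reads in H3K27me3 experiment 6, 75.1% in experiment 7 and 73.5% in H3K4me3 experiment 2. An exact two-sided sign-flip permutation test over the 14 experiments gave a mean difference of -1.41 on the log2(CPM + 1) scale and p = 0.0225, unadjusted and the lowest of 7 genes tested, with p = 0.346 to 0.986 for the others. The edgeR fit did not call Fgfr1 (adjusted p = 0.67). The test of a different effect with each antibody called no gene either (0.00%, with 790 at an unadjusted p below 0.05), and the genes had adjusted p of 0.83 to 1.

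**Figure D5:**
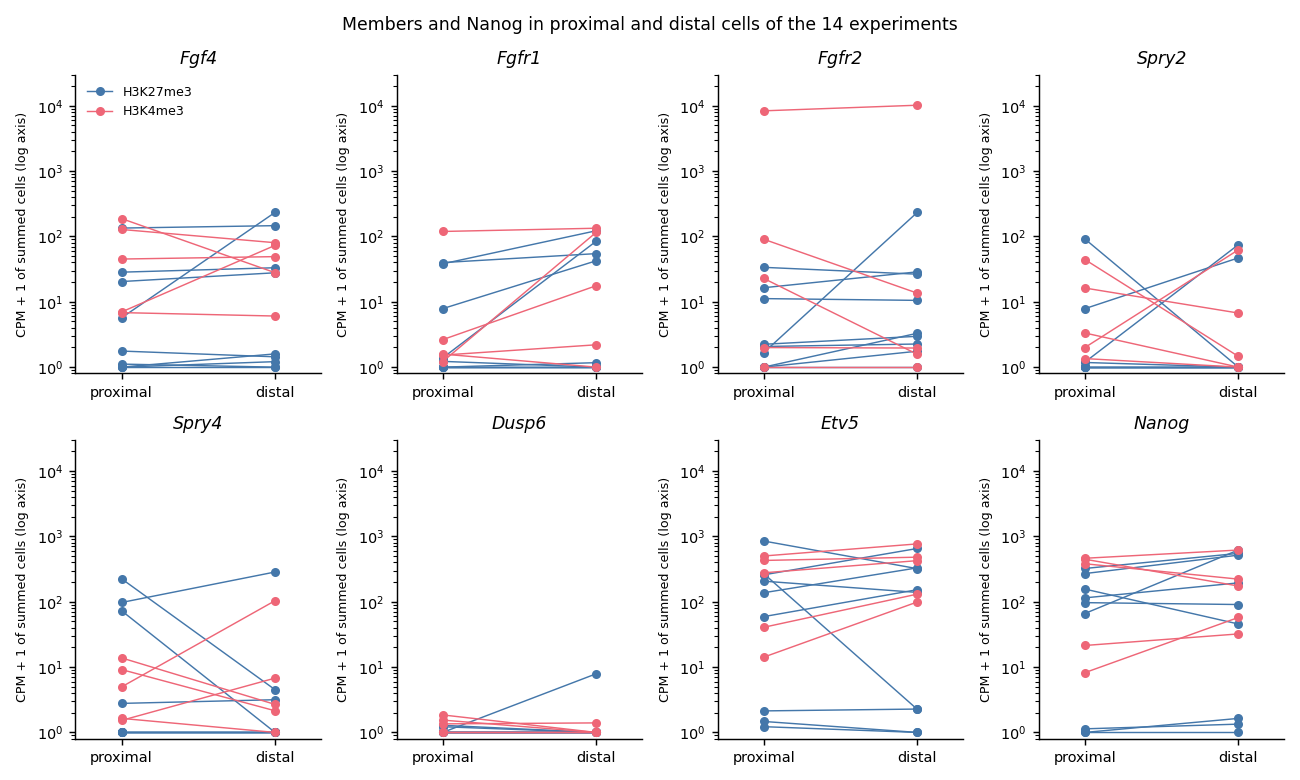
CPM + 1 of 7 of the genes and of Nanog in the summed proximal and distal cells of the 14 experiments, on a log axis. A line joins the 2 positions of each experiment, in blue for H3K27me3 and in red for H3K4me3. Fgfr1 was higher in distal cells in 9 experiments and in proximal cells in 2.

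The study sorted the cells into clusters named Proxi, Dista and Mix, and these clusters were made from the same cells, so that their levels are a description. With both antibodies together, 2 of the 7 genes were higher in Proxi than in Dista cells. Etv5 had 332 CPM in 133 Proxi cells, 327 CPM in 121 Dista cells and 35.2 CPM in 291 Mix cells. Its direction differed by antibody, with 386 CPM in Proxi and 220 CPM in Dista cells for H3K27me3, and 238 and 562 CPM for H3K4me3. Of its Proxi reads, 31.6% came from 1 cell. Fgf4 had 26.3, 91.2 and 3.59 CPM, and Fgfr1 had 9.13, 42.7 and 7.69 CPM. Single cells held 57.8% of the Dista reads of Fgf4 and 45.9% of those of Fgfr1. Spry4 had 17.8, 154 and 2.10 CPM, with 62.4% of the Dista reads in 1 cell. Fgfr2 was at 225, 200 and 207 CPM, but 89.6% of all its reads came from H3K4me3 experiment 4, with 10 Proxi, 5 Dista and 32 Mix cells. Without that experiment, left out after the data were seen, Fgfr2 was at 23.5, 58.1 and 11.4 CPM, and 1 of the 7 genes was higher in Proxi than in Dista cells. Median depth was 103532 reads in Proxi, 67555 in Dista and 174774 in Mix cells. Of the 208 Mix cells with H3K27me3, 56, 43 and 54 came from experiments 8, 9 and 10, the experiments with low Nanog and Etv5.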

How the data were processed

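Expression of FGF and ERK feedback genes was analysed in 54 bulk libraries and in single cells, and genomic libraries were not analysed here. For bulk libraries the authors trimmed reads (Trim Galore 0.6.4), aligned them to mm9 (STAR 2.5.4b) and counted read pairs on exons without strand (featureCounts 2.0.0), and the deposited values are raw counts. Single-cell values are counts of reads on exons and introns that the authors deposited from zUMIs. The submitters' processing notes give these versions.

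The members and gene lists were chosen with earlier results of these data known. CPM were calculated without Rn45s, which took a varying share of the counts. Groups were compared in R 4.3.3 with edgeR 4.0.16 (TMM, its filter on low counts, quasi-likelihood test, Benjamini-Hochberg adjustment over all genes, calls under 0.05). Groups came from the sample labels. Besides the members, up to 5 called genes of the other pathway lists with the largest absolute log2 fold change in a comparison were open to be named, and the 3 genes most like a member. Single cells with more than 1000 and fewer than 5000 genes were summed per experiment and position, with at least 3 cells per sum. Positions and clusters were taken from the study's lists of cells, and doublets were not called, since cells were picked by hand. Paired signs were tested by exact sign flips on log2(CPM + 1), with a pseudocount of 1.

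Other settings tried were DESeq2 1.42.0, edgeR with DESeq2 size factors, limma 3.58.1, no filter, Rn45s included, the rule of the study (unadjusted p with an absolute log2 fold change above 1), a replicate block, other WT libraries, single clones, other cell filters, and each library left out, where the spread of a lone library was taken from the remaining groups. The comparison of ligation with SET-seq, the fits without experiments of low Nanog and the clusters without H3K4me3 experiment 4 were chosen after the data were seen. In the Tn5 series the replicate numbers pair the libraries (correlations of residuals 0.804 to 0.874). In the compared groups the median correlations were -0.046 to 0.016. Single pairs of conditions there ran from -0.228 to 0.439, with the highest among the temperature and time conditions. Libraries of one condition differed by more than sampling noise. The scripts were tested on simulated data. Depth limits low genes: at the lowest depth of 188275 counts, 1 read is several CPM. Intervals cover counting error or the spread between libraries only. Python 3.11.15, pandas 2.3.3, numpy 2.4.6 and matplotlib 3.10.9 were used for the other steps.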

Additional observations from a re-analysis of the deposited data

Results flagged for a closer look

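In single cells, 4 of 14 groups of experiments held an experiment far from the others of its antibody by Dixon's test at the 95% level. The 1 in 20 rate of that level holds for normal values of equal precision. These CPM hold many zeros and come from unequal depths, so the rate of flags by chance is not known here. Fgfr2 had 9095 CPM in H3K4me3 experiment 4, where the next experiment had 53.5 CPM. Fgfr2 also had 128 CPM in H3K27me3 experiment 3, where the next had 28.9 CPM and 98.0% of the reads of the experiment came from 1 cell. Spry4 had 54.2 CPM in H3K4me3 experiment 6, where the next had 8.26 CPM and 95.5% of the reads came from 1 cell. Dusp6 had 4.12 CPM in H3K27me3 experiment 5, from 3 reads in 3 cells, where the next had 0.137 CPM. In bulk, the Aebp2 KO clones differed in Spry4 (log2 fold change of KO1 against KO2 -2.13) and in Etv4 (-2.45), tested as a contrast of the 2 clones in edgeR. Spry4 was not called without 3 of the 4 KO libraries in turn (-3.61 to -1.46), and Etv4 without 1 of them (-2.51). The causes were not tested.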

How the results depend on the processing

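Of 73 alternative counts of called genes, 66 were within 1.5 times the reported count. The others were 1 of 7 for KO1 against KO2 with DESeq2 and with the replicate block (0 to 2 on leaving out a library), 0 for 37 °C against 16 °C at 5 min only, 3 for ligation against SET-seq, and 1 for proximal against distal cells by sign flips. Genes higher in Proxi than in Dista cells numbered 1 with H3K27me3 alone and without H3K4me3 experiment 4, and 3 by the mean of log2 values and with H3K4me3 alone. Of 451 alternative values of single genes, 385 kept direction and side of the threshold, 13 lost the call, 15 gained it and 38 turned direction.

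For KO against WT, values turned with WT from the H3K4me3 co-assay (Fgfr1 0.022, Dusp6 -0.080), from SET-seq without an antibody (Fgf4 0.32, Dusp6 -0.70) and from in vitro libraries (Fgfr1 0.32, Spry4 0.97, Etv4 0.29), and with KO1 only (Fgfr1 0.021, Dusp6 -0.21). Ligation against SET-seq turned Fgf4 (0.10), Fgfr1 (-0.079), Spry4 (-0.35) and Etv4 (-1.02). Spry2 in the co-assay turned with no filter (0.00162), Rn45s (0.0054) and the replicate block (0.020). In proximal against distal cells, Fgfr2 turned with DESeq2 size factors (-0.24), DESeq2 (-0.20), no filter (-0.14), limma (-0.00299), H3K27me3 only (-0.996), no replicate block (-0.19) and sign flips (-0.30). Etv5 turned with the first 4 of these (-0.083, -0.058, -0.21, -0.39), all cells (-0.38), H3K4me3 only (-1.05), at least 8 cells (-0.16), no replicate block (-0.14), without experiments of low Nanog (-0.53) and sign flips (-0.017). Spry4 (-0.038, limma), Spry2 (-0.70, H3K27me3 only) and Fgf4 (0.25, H3K4me3 only) turned once each. In the interaction Fgfr1 (0.065, DESeq2 size factors) and Fgf4 (1.15, all cells) turned. The cause was not tested.

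On leaving out 1 library, Fgfr1 in KO ran from -0.117 to 0.031, and between clones Fgf4 ran from -0.088 to 0.308 and Etv5 from -0.078 to 0.343. Spry2 in the co-assay ran from -0.192 to 0.160. Between antibodies Fgf4 ran from -0.028 to 0.061, Spry2 from -0.176 to 0.125, Spry4 from -0.216 to 0.137, Dusp6 from -0.553 to 0.147, Etv4 from -0.399 to 0.102 and Etv5 from -0.0021 to 0.058. With 100 against 10000 cells Fgfr1 ran from -0.253 to 0.096, Spry4 from -0.308 to 0.163 and Dusp6 from -0.607 to 0.274.

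With the replicate block, Spry4 between clones (-2.11, adjusted p = 0.057) and Dusp6 in the co-assay (adjusted p = 0.058) were not called, Etv4 with 100 cells was (adjusted p = 0.047), and 552 genes in place of 712 were called between clones. Over all genes, calls also moved with the rule of the study (3066 in place of 6144 for KO), 5 min only (3367 in place of 7473) and ligation against SET-seq (5958 in place of 10429). Proximal against distal cells gave 0 in the edgeR fit, 58 with DESeq2, 24 with no filter, 8 with all cells and 55 without the block, and the interaction 3 with no filter. Depth limits Spry4, Etv4, Spry2 and Dusp6 in the KO libraries and all genes but Etv5 in single cells.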
